A study of Mus musculus with 15 samples.

Results

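Paneth cells of the mouse small intestine were taken as the cells in which 6 Paneth genes, Lyz1, Mmp7, Itln1, Defa24, Defa17 and Ang4, together made up 2% or more of the cell's unique molecular identifiers (UMIs, 1 per captured RNA molecule). This rule found 183 cells among 14547 cells of the small intestine (1.26%) and 18919 cells in the series. Of the 183, 159 came from the distal and 24 from the proximal small intestine. The study used Seq-Well, which captures single cells with barcoded beads in small wells, on mice of the strain Lgr5-eGFP-IRES-CreERT2 aged 6 months. In this strain the stem cell gene Lgr5 drives a green fluorescent protein and a Cre recombinase that tamoxifen can activate, and all groups carry the allele. Control mice (n = 2) ate a purified diet with 10% of its energy from fat, matched for sucrose, and high fat diet mice (n = 3) ate one with 60%. Each mouse gave 1 library from the proximal and 1 from the distal small intestine, and the colon libraries of the same mice served for 1 check only. Values are CPM, the UMIs of a gene per 1000000 UMIs of the summed Paneth cells of a library, which is 1 mouse. Exceptions are the levels by band of the share of the 6 genes, pooled over all mice and both organs, and those of T cells, pooled over mice.

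Paneth cells sit at the base of the crypts of Lieberkühn, beside the Lgr5 stem cells, and fill their granules with antimicrobial proteins such as lysozyme and the alpha-defensins. They also present growth factors, among them Wnt3 and Notch ligands, to the neighbouring stem cells. They arise from secretory precursors that also form goblet cells.

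The alpha-defensins are short secreted peptides encoded by a cluster of near-copies, and the coding sequences below show how far the 3 members on which the regional result turns differ. The letters are the coding strand from the start codon to the last codon before the stop, read from the mouse genome GRCm38 with GENCODE M21. Defa24 lies at chr8:21734494-21735471, Defa21 at chr8:21025545-21026516 and Defa22 at chr8:21162277-21163249, all on the plus strand. Defa24 is printed in lower case as the base of comparison, and capitals in the other members mark bases that differ from it in a pairwise alignment.
Defa24: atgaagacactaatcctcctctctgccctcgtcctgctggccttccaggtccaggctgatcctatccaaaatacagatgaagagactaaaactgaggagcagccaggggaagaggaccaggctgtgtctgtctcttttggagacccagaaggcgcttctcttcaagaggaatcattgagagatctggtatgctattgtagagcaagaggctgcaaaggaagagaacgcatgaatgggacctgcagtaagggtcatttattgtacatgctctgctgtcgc
Defa21: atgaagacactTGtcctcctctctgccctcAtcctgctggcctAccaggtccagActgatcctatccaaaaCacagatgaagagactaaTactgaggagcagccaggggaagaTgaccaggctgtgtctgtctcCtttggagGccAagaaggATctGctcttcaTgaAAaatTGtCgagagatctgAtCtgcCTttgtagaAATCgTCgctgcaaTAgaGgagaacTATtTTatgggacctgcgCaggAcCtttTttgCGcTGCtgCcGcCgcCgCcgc
Defa22: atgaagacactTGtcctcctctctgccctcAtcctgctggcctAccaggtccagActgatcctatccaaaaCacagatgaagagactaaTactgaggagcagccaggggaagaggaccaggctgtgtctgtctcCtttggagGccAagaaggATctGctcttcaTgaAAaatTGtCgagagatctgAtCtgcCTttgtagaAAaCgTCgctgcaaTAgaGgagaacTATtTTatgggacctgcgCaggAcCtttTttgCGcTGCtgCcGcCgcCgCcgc
Defa21 and Defa22 were identical at 99.3% of aligned coding positions, with 2 differences, while Defa24 matched Defa21 at 80.5% and Defa22 at 81.2%. Over the last 150 bases of the transcript, where a 3' tag method reads, Defa21 and Defa22 differed at 2 positions and Defa24 and Defa21 at 40. Defa17 and Defa3 had the same coding sequence. Counts of Defa21 against Defa22, and of Defa17 against Defa3, are therefore uncertain as single genes, whereas Defa24 and the Defa21 and Defa22 pair are distinct.

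The 6 genes of the rule made up from 2.01% to 36.0% of a Paneth cell's UMIs, with a median of 9.06%. The cells were chosen by these values, which are given as a description. The 3 cells just inside the threshold had shares of 2.01%, 2.04% and 2.05%, and the 3 just outside had 2.00% (below the threshold before rounding), 1.98% and 1.96%. All 6 genes were counted in 124 cells, 5 in 49, 4 in 9 and 3 or fewer in 1. Lyz1, which encodes lysozyme, led the sum in 76 of 159 distal cells, and Defa24 led it in 58 distal and in 18 of 24 proximal cells. Lyz1 stood at 38102 ± 9164 CPM (mean ± SD, n = 5 mice) in distal and 27373 ± 20682 CPM in proximal Paneth cells, and Defa24 at 40289 ± 14022 and 32125 ± 19949.7 CPM. Itln1, an intelectin that binds microbial sugars, reached 25488 ± 11910 CPM and Mmp7, the protease that activates pro-defensins, 7875 ± 1098 CPM in distal cells. Defa17 reached 8700.1 ± 2364 CPM and Ang4, an antimicrobial ribonuclease, 5118 ± 3517 CPM there. No colon cell of 4372 met the threshold, and 8 reached 1%, of which 6 were led by Ang4 and 5 came from control mouse 2.

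The label held for the cells with the highest shares and only in part for the rest. Goblet cell genes ran through the Paneth cells as a gradient against the share of the rule genes. In the 57 cells with a share of 2 to 5%, Fcgbp, a mucus protein of goblet cells, stood at 7532 CPM and Tff3, the goblet trefoil peptide, at 8093 CPM. The 82 cells at 10% or more had 915 CPM of Fcgbp and 2228 CPM of Tff3. The 204 cells at 0.5 to 2%, below the rule, had 13476 and 9136 CPM, so that the cells just above the threshold lay nearer to these than to the cells at 10% or more. The opposite gradient held for Paneth products outside the rule. Gm15284, a defensin-like gene, went from 732 to 3235 to 25186 CPM over shares of 2 to 5%, 5 to 10% and 10% or more. AY761184, also of the defensin family, went from 1253 to 5175 to 12806 CPM. Mptx2, a pentraxin of Paneth cells, went from 81.6 to 182 to 4600.1 CPM. Spink4 did not follow either course: it stood at 10501, 16586 and 8938 CPM and was highest in the middle band. Since the share itself rises with these products, the gradients are a description with no test. The bands pool mice, and the distal libraries of high fat diet mice 2 and 3 gave 25 and 40 of the 82 cells at 10% or more.

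**Figure D1:**
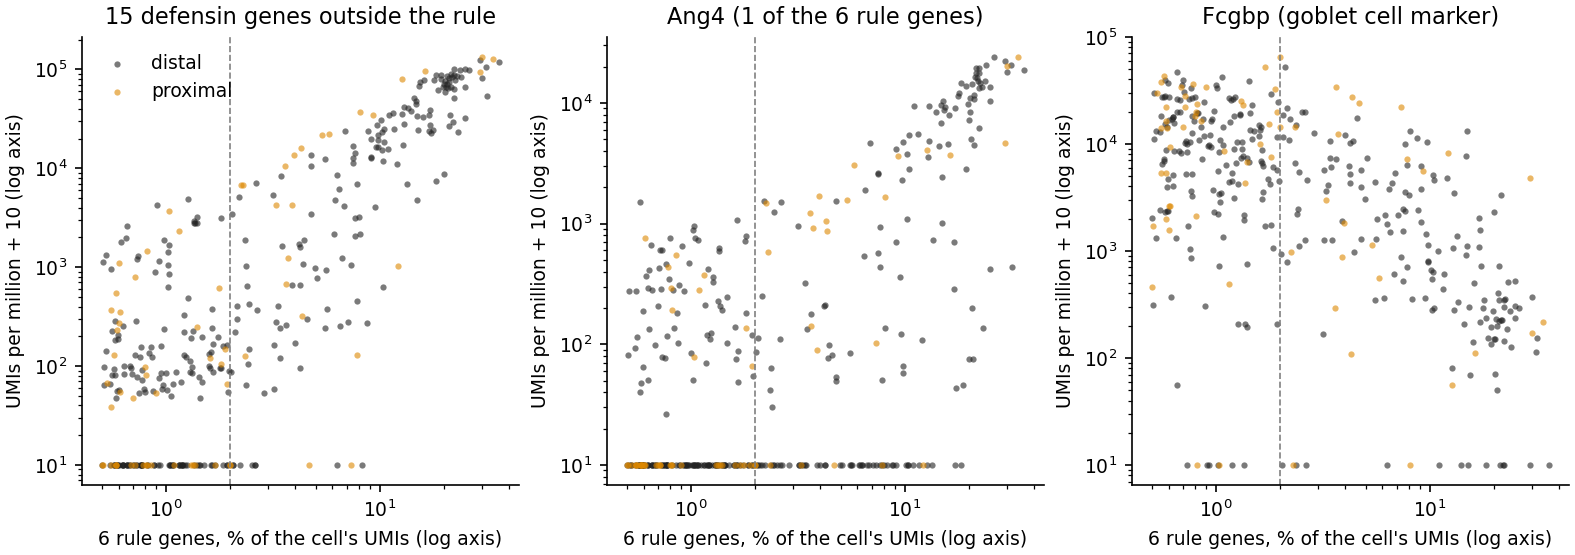
Each point is 1 cell with a share of the 6 rule genes of 0.5% or more (x axis, log scale; black distal, orange proximal), and the y axes give the summed defensins outside the rule, Ang4 and Fcgbp in CPM with 10 added (log scale); the dashed line is the 2% threshold. Defensins climb over the whole range with no gap at the threshold, while Fcgbp falls over the same range.

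At least 4 goblet markers of 9 were counted in 179 of the 183 Paneth cells (97.8%), against 38.7% of other cells. Stem cell markers reached this number in 162 Paneth cells (88.5%, against 84.1% of other cells), genes of dividing cells in 84 (45.9% against 75.0%) and enterocyte genes in 49 (26.8% against 49.5%). Enteroendocrine genes reached it in 21 (11.5% against 2.96%), T cell genes in 4 (2.19% against 3.08%), B and plasma cell genes in 1 (0.546% against 0.480%), and tuft and myeloid genes in 0 (against 1.16% and 0.132%). By level the enteroendocrine genes went the other way. Of 10 measured distally, 9 were at least 2-fold lower in Paneth cells and 0 higher, and their sum had a median of 157 against 1115 CPM. Lyz2, the lysozyme gene of macrophages, averaged 74.6 CPM in distal Paneth cells against 16.9 CPM in other distal cells, while the myeloid genes Cd68, Csf1r, C1qa and C1qb were at 0 there. The high-share cells were unevenly spread. Those at 10% or more were 4 of 4, 4 of 14, 3 of 10, 25 of 44 and 40 of 87 Paneth cells in the distal libraries of control mice 1 and 2 and high fat diet mice 1 to 3, and 2 of 4, 3 of 9, 0 of 1, 0 of 6 and 1 of 4 in the proximal ones. The part that goblet-type cells had in the comparisons below was measured only by raising the threshold, to 5% for the diet and to 10% for the levels by organ. Scrublet called 5 Paneth cells doublets (2.73%, against 1.28% of all cells), and no Paneth cell shared its barcode with another small intestine library.

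Paneth cells were more frequent distally in 5 of 5 mice. They made up 0.370%, 0.887%, 0.984%, 4.73% and 4.60% of cells in the distal libraries of control mice 1 and 2 and high fat diet mice 1 to 3, and 0.243%, 0.469%, 0.0927%, 0.345% and 0.240% in the proximal ones. High fat diet mice 2 and 3 stood apart, and their distal libraries held 131 of all 183 Paneth cells (71.6%). The mean difference between organs was 2.04 percentage points (exact sign-flip permutation test over 5 mice, two-sided p = 0.063, the smallest 5 pairs allow). Leaving out high fat diet mouse 2 gave 1.45 points, and leaving out mouse 3 gave 1.46 points.

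By diet, the distal share was 0.629% ± 0.365 (SD, n = 2) in control and 3.44% ± 2.13 (SD, n = 3) in high fat diet mice. All 3 high fat values lay above both control values, but that of high fat diet mouse 1 was close to that of control mouse 2. The difference of 2.81 points did not pass the exact two-sided permutation test (p = 0.2, with 0.1 the smallest that 2 against 3 mice allow). Proximally the shares were 0.356% ± 0.160 (SD, n = 2) and 0.226% ± 0.127 (SD, n = 3) and overlapped (difference -0.130 points, exact p = 0.4). The diet difference was 2.94 points larger distally than proximally (exact p = 0.2). With the threshold at 5%, the distal difference was 2.12 points. The numbers are shares of captured cells, in which fewer cells of other types and more Paneth cells cannot be told apart.

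**Figure D2:**
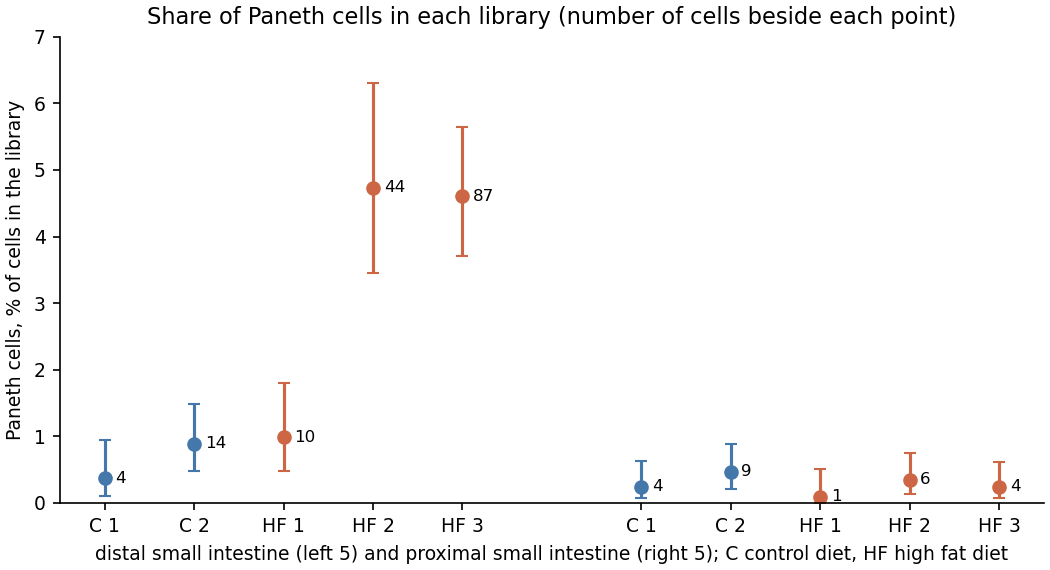
Points are the percentage of cells in each library that met the Paneth rule, with exact (Clopper-Pearson) 95% binomial intervals for counting error only and the number of Paneth cells beside each; blue is control and orange high fat diet. The distal libraries of high fat diet mice 2 and 3, at 4.73% and 4.60%, lie above all others, which reach at most 0.984%.

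Apart from the genes of the rule, Paneth cells carried the wider defensin family and a set of digestive and secreted proteins. This comparison with other cells rests on the same cells that the rule chose, so folds are given without a test. On the log2 scale with 10 CPM added, 4.29% of the 9418 genes measured distally were at least 2-fold higher in Paneth cells and 18.1% at least 2-fold lower, with a median difference of -0.47. Of 13 measured defensins outside the rule, 12 were at least 2-fold higher. Gm15284 led with a log2 ratio of 8.80, at 12459 ± 4863 CPM (SD, n = 5) against 17.0 CPM in other distal cells. AY761184 followed at 8.59, Gm14851 at 7.92, Defa21 at 7.77 and Defa22 at 7.73, and each was higher in 5 of 5 distal libraries. Other secreted proteins were at least 2-fold higher for 14 of 18 and lower for 2. Mptx2 averaged 3925 ± 3843 CPM, but with 25.4 CPM in high fat diet mouse 1 against 2022 to 10225 CPM in the other 4 mice. Clps, pancreatic colipase, reached 1402 ± 529 CPM and Pnliprp2, a lipase that works with colipase, 952 ± 556 CPM. Reg4, a lectin of secretory cells, reached 2724 ± 909.8 CPM, Rnase1, a secreted ribonuclease, 889 ± 487 CPM and Habp2, a secreted serine protease, 729 ± 182 CPM. Ccl9, a chemokine, stood at 1763 ± 1117 CPM. Pigr, the receptor that carries IgA across the epithelium, went the other way, at 3956 ± 726 CPM against 6833 CPM in other cells.

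Genes of secretory fate were at least 2-fold higher for 8 of 13 and lower for 1. Atoh1, the transcription factor that opens the secretory lineage, averaged 294 ± 86.5 CPM in distal Paneth cells and 57.1 CPM in other cells. The goblet-rich cells just below the rule, with shares of 0.5 to 2%, held as much, 355 CPM against 327, 279.7 and 275 CPM in the 3 bands of Paneth cells. Creb3l1 averaged 329 ± 180.3 CPM and Ern2, an endoplasmic reticulum stress sensor of mucous cells, 272 ± 95.4 CPM. Xbp1, the transcription factor of secretory capacity on which Paneth cells depend, was at 400.1 ± 123 CPM against 213 CPM, with a log2 ratio of 0.86. Of 28 endoplasmic reticulum genes 11 were at least 2-fold higher and none lower. Hspa5, the main chaperone of that compartment, had a log2 ratio of 0.90.

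Among niche factors, 5 of 10 measured genes were at least 2-fold higher and 2 lower. Wnt3 averaged 235 ± 65.2 CPM in distal Paneth cells against 14.9 CPM in other cells. Kit, a receptor that marks secretory crypt cells, averaged 438 ± 131 CPM and Cd24a, used to sort Paneth cells, 2169 ± 253 CPM. Below the rule, at shares of 0.5 to 2%, Kit was at 312 CPM, within the range of its levels in Paneth cells by band (284 to 361 CPM), and Wnt3 at 71.3 CPM, below all 3 bands (137 to 269 CPM). Of the Notch ligands, Dll4 averaged 67.0 ± 20.1 CPM against 24.5 CPM and was higher in 5 of 5 libraries, while Dll1 averaged 78.1 ± 34.6 against 57.3 CPM and was higher in 4. Egf averaged 21.8 CPM against 1.62 CPM. Hbegf, another ligand of its receptor, was lower, at 16.3 against 76.4 CPM, as was the Wnt receptor Fzd5, at 37.1 against 180.2 CPM. All 14 genes of dividing cells and all 8 measured enterocyte genes were at least 2-fold lower, beside 18.1% of all genes. So were 19 of 32 genes of fatty acid oxidation, 5 of 12 of glycolysis and 4 of 12 of lipogenesis. The median log2 ratios of these last 3 lists were -1.10, -0.69 and -0.72, beside -0.47 over all genes. The rule genes were also counted in other cells, where they made up from 0.0291% to 0.107% of UMIs in the distal libraries, and in T cells, which do not make them, at 0.050%.

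Distal and proximal Paneth cells differed in their defensins. Only libraries of 10 or more Paneth cells were to enter the tests across genes. No proximal library held 10, so the organs were compared over the 9 libraries with at least 4, a minimum set after the counts were seen. In edgeR's quasi-likelihood test with Benjamini-Hochberg adjustment, 56 of 4012 genes (1.40%) were higher in distal and 88 (2.19%) were lower at an adjusted p under 0.05. With the mouse as a block, 110 (2.74%) were higher and 133 (3.32%) lower, and 134 genes were called by both (93.1% of the first set and 55.1% of the second). The count fell from 144 to 21 when control mouse 2 was left out and to 54 when high fat diet mouse 2 was.

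Of 11 defensins tested outside the rule, 5 were higher in distal cells and none was lower, against 1.40% of all genes. Defa21 stood at 8114 and 3334 (control) against 533, 3907 and 3119 (high fat) CPM distally, given here and below for control mice 1 and 2 and high fat diet mice 1 to 3. Proximally it stood at 0 and 125 (control) against 0, 0 and 48.4 (high fat) CPM. Defa22 stood at 5291 and 3414 (control) against 654, 3722 and 3056 (high fat) CPM distally and at 0 and 31.1 (control) against 0, 0 and 16.1 (high fat) CPM proximally. No proximal value of either gene reached the lowest distal one, that of high fat diet mouse 1. The log2 difference was 8.24 (SE 0.78, adjusted p = 7.30e-07) for Defa22 and 6.77 (SE 0.82, adjusted p = 2.51e-05) for Defa21 in edgeR's test, and both passed it in 10 of 10 alternatives, with adjusted p at most 0.000170. Genes counted in few cells of a library are almost all at 0 in the deposited table, so a 0 sets no upper limit, and the fitted size depends on such zeros. Because the copies are nearly identical, the result belongs to the pair.

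Both regional genes stood higher at higher shares of the rule genes, Defa21 going from 24.0 to 286 to 5639.9 CPM and Defa22 from 46.0 to 335 to 5425 CPM over the 3 bands, a description with no test. In the cells with shares of 10% or more alone, Defa21 stood at 8114, 9291, 2051, 6522 and 5978 CPM in the 5 distal libraries and at 0, 255 and 137 CPM in the 3 proximal libraries with such cells, which held 6 cells together. Defa22 stood at 5291, 9498, 2515, 6192 and 5789.6 CPM and at 0, 63.7 and 45.8 CPM. In the same cells Defa24 was at 59163, 68849, 49597, 75869.8 and 56456 CPM distally and 108097, 75011 and 59936 CPM proximally, and the ranges overlapped. Gm15284 was at 16737, 29530.4, 19829, 27996 and 22755 and at 34931, 36767 and 46520.1 CPM, with each proximal value above each distal one. AY761184 was at 15516, 7552, 6032, 7826 and 10628 and at 58366, 27174 and 14881 CPM, with the ranges barely overlapping. Over all Paneth cells neither Gm15284 nor AY761184 passed the organ test (log2 difference -0.10 (SE 0.50, adjusted p = 0.954) and -0.25 (SE 0.51, adjusted p = 0.875), edgeR). The genes of the rule are described and not called.

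**Figure D3:**
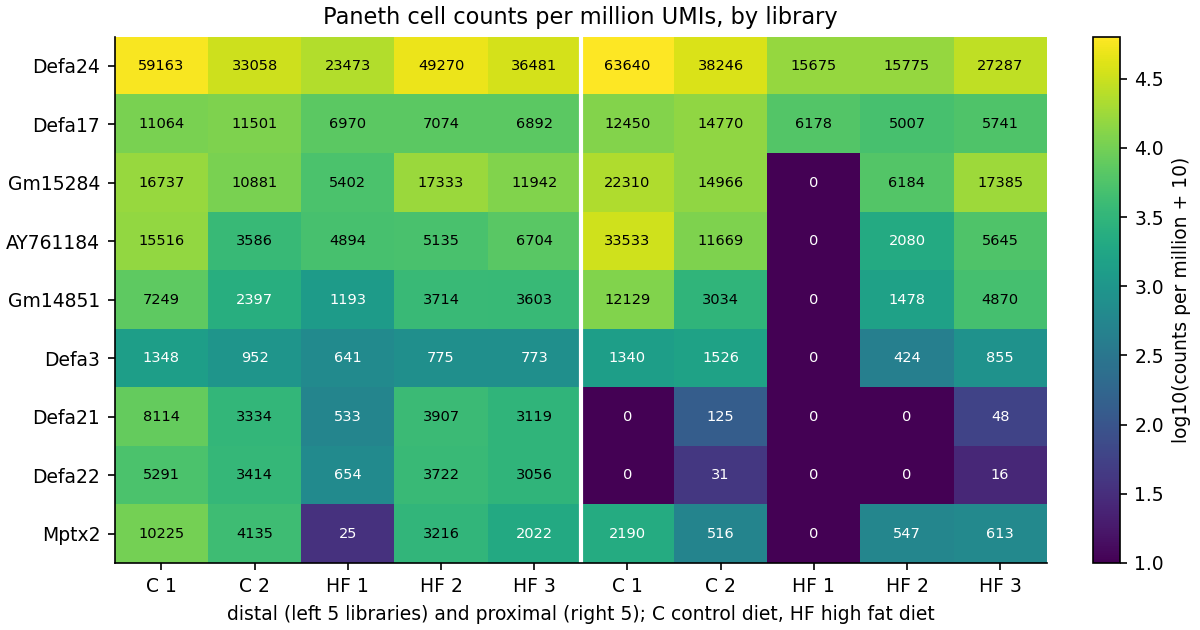
Each square gives the CPM of a gene in the summed Paneth cells of 1 library (colour: log10 of that value plus 10); the 5 libraries left of the white line are distal and the 5 right of it proximal. Defa21 and Defa22 are at 533 CPM or more distally and at 125 CPM or less proximally, whereas Defa24 and Defa17 are high in all libraries; HF 1 on the right is a single cell.

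Of the other distal defensins, Gm15315 had a log2 difference of 4.16 (SE 0.83, adjusted p = 0.00512) and Gm10104 of 6.35 (SE 1.24, adjusted p = 0.00429) in edgeR's test. Of 17 other secreted proteins 3 were higher distally and none lower, beside 1.40% higher and 2.19% lower of all genes tested. Reg3g, a lectin that kills Gram-positive bacteria, stood at 305 and 519 (control) against 324, 1447 and 4769 (high fat) CPM distally and 88.2 and 258 (control) against 0, 27.4 and 129 (high fat) CPM proximally. Its log2 difference was 3.16 (SE 0.62, adjusted p = 0.00423) in edgeR's test, and 0.0527 was its adjusted p without control mouse 2. Reg3b, a lectin of the same family, differed by 2.74 (SE 0.66, adjusted p = 0.0192) and Nupr1, a stress-induced nuclear protein, by 2.09 (SE 0.52, adjusted p = 0.0219). Of 8 goblet genes tested 2 were higher distally, Atoh1 and the mucus lectin Zg16, and none lower, with a median of 0.58 against 1.73 in other cells. Zg16 differed by 3.96 (SE 0.87, adjusted p = 0.0101). Outside the lists, Clca3 differed by 3.49 (SE 0.67, adjusted p = 0.00383) and Guca2a, which encodes guanylin, by 2.29 (SE 0.42, adjusted p = 0.00317). In cells with shares of 10% or more, Guca2a kept the order, with 1755, 3229.6, 1954, 1355 and 1897 CPM distally against 406, 994 and 229 CPM proximally. Reg3g and Zg16 kept it too. Their lowest distal values there were 269 and 50.9 CPM and their highest proximal ones 242 and 38.2 CPM.

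Some niche and fate genes differed too. Wnt3 stood at 254 and 228 (control) against 311, 132 and 251 (high fat) CPM distally and 160.4 and 107 (control) against 138, 54.7 and 96.8 (high fat) CPM proximally, a log2 difference of 1.30 (SE 0.35, adjusted p = 0.0364) in edgeR's test. The groups overlapped, since distal high fat diet mouse 2 was below 2 proximal libraries. Kit differed by 1.24 (SE 0.34, adjusted p = 0.0407), Atoh1 by 1.67 (SE 0.41, adjusted p = 0.0228) and Creb3l1 by 1.56 (SE 0.35, adjusted p = 0.0124). Fzd5 and Hbegf were lower distally, with log2 differences of -1.49 (SE 0.41, adjusted p = 0.0410) and -2.58 (SE 0.58, adjusted p = 0.0109). Of 6 niche genes tested 2 were higher and 1 lower, and of 11 fate genes 2 were higher and 1 lower. Over all genes 1.40% were higher and 2.19% lower. The median log2 difference was 0.80 for niche and 0.75 for fate genes in Paneth cells. In other cells it was 0.58 and 0.79, so a shift of similar size was not particular to Paneth cells.

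Proximal Paneth cells carried more of a set of genes known from proximal enterocytes. Dmbt1, a secreted scavenger receptor, stood at 102 and 38.6 (control) against 209, 253 and 171 (high fat) CPM distally and 2142 and 1237 (control) against 184, 4488 and 3016 (high fat) CPM proximally, a log2 difference of -4.51 (SE 0.43, adjusted p = 7.30e-07) in edgeR's test. Onecut2 and Gata4, transcription factors of the proximal intestine, differed by -6.84 (SE 0.82, adjusted p = 2.51e-05) and -3.58 (SE 0.51, adjusted p = 0.000161). Sis, sucrase-isomaltase, differed by -3.72 (SE 0.56, adjusted p = 0.000353) and Mttp, which loads lipoproteins, by -3.90 (SE 0.51, adjusted p = 6.11e-05). Of 7 enterocyte genes tested 4 were lower distally and none higher, and of 9 genes of dividing cells Mki67 and Cenpf were lower. Over all genes tested 2.19% were lower. The enterocyte genes summed to 254 to 775 CPM in distal and 871 to 3119 CPM in proximal Paneth cells, and to 1338 to 3540 and 3200 to 5257 CPM in other cells. In T cells, which do not make these proteins, Sis stood at 484 CPM distally and 776 CPM proximally, and Dmbt1 at 1174 and 3800.1 CPM. The part of RNA from other cells in these differences was not tested. Most of the called genes went the same way in other cells of the same libraries, 52 of the 56 higher and 80 of the 88 lower, beside 1170 of 2064 and 1517 of 1948 over all genes tested. At 2-fold or more in other cells the counts were 32 of the 56 and 21 of the 88, beside 145 of 2064 and 30 of 1948.

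**Figure D4:**
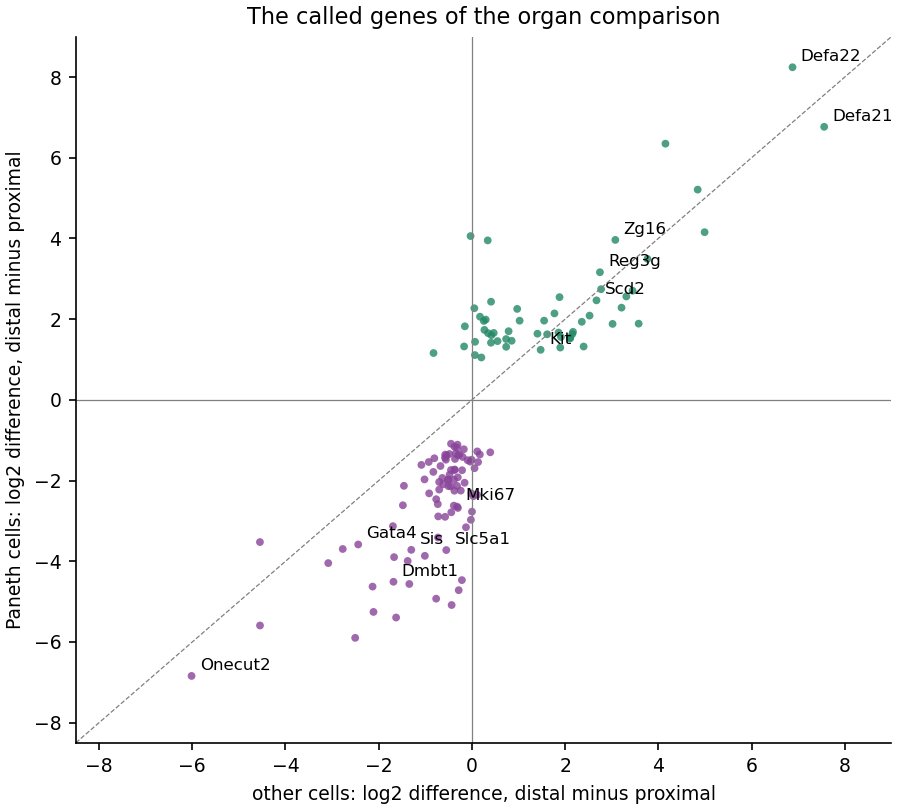
Each point is 1 of the 144 genes called between organs in Paneth cells (green higher distally, purple lower); the y axis is the log2 difference, distal minus proximal, in Paneth cells and the x axis that in all other cells, with a dashed line of equality. Defa22 and Defa21 lie far up on both axes, while Slc5a1 lies at -3.72 in Paneth cells and at -0.55 in other cells.

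Under the high fat diet few genes of distal Paneth cells passed a test. With 10 or more Paneth cells per library, only control mouse 2 represented the control diet, against 3 high fat diet mice. In this fit 12 of 5951 genes (0.202%) were higher and 6 (0.101%) lower in high fat diet cells by edgeR's quasi-likelihood test, with the lone control assumed to vary like the other libraries. The higher genes included the immediate early genes Atf3, Fosb, Dusp1, Jun, Zfp36 and Cyr61, which respond within minutes to stress or growth signals, and Ppp1r15a of the stress response. The 2 control mice differed in them. Fosb stood at 229 and 29.7 (control) against 178, 574 and 385 (high fat) CPM, and Atf3 at 203 and 11.9 (control) against 229, 786 and 563 (high fat) CPM. Control mouse 1, which the fit left out with 4 cells, was above high fat diet mouse 1 for Fosb and far above control mouse 2 for both genes. The stem cell gene Olfm4 stood at 305 and 38.6 (control) against 413, 797 and 157 (high fat) CPM and the division marker Mki67 at 76.3 and 29.7 (control) against 159, 253 and 130.4 (high fat) CPM. The other higher genes were Dmbt1, the enteroendocrine gene Chgb, at 714 CPM in high fat diet mouse 2 and at 25.4 CPM or less in the other 4, and the antibody gene Igha, at 150 CPM in high fat diet mouse 3 and at 31.7 CPM or less in the others. Mptx1, Scd2, Gm9765, Hsph1 and Tmem97 were among the lower genes. The count was 7 when high fat diet mouse 1 was left out, 8 when mouse 2 was, and 5 in DESeq2.

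With libraries of at least 4 cells, which gave 2 control and 3 high fat diet mice, 2 of 4012 genes were called, both lower (0.0499%). Scd2, a desaturase that makes monounsaturated fatty acids, stood at 331 and 519 (control) against 69.8, 94.5 and 103 (high fat) CPM, and the groups did not overlap. Its log2 difference was -2.28 (SE 0.42, adjusted p = 0.0334) in edgeR's test. In other distal cells Scd2 also was lower, at 638 ± 42.2 CPM (SD, n = 2) and 195 ± 69.5 CPM (SD, n = 3). Mptx1, a pentraxin of the same family as Mptx2, stood at 50.9 and 427 (control) against 0, 18.9 and 33.4 (high fat) CPM, without overlap. The value of 50.9 CPM rests on few molecules, from 4 cells with 39315 UMIs together. The log2 difference of Mptx1 was -3.59 (SE 0.64, adjusted p = 0.0334) in the same test. Both were lost when control mouse 2 was left out (Mptx1 -1.40, adjusted p = 0.859, and Scd2 -2.03, adjusted p = 0.636, by edgeR) or high fat diet mouse 1 was (adjusted p = 0.112 for both). That of Scd2 was also lost in the absence of high fat diet mouse 3 (adjusted p = 0.0570). Both were lost in DESeq2, with adjusted p = 0.999 for Mptx1 and 0.237 for Scd2, and with the threshold at 1% of UMIs. With the threshold at 5%, 13 genes were called and Scd2 remained so (-2.58, adjusted p = 5.70e-06, edgeR). No other gene of the lists was called in this fit. Of 24 genes of fatty acid oxidation 19 had positive differences, with a median of 0.55 against 0.03 over all genes, and 0 were called. Their median in other distal cells was 0.41.

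In proximal Paneth cells, with 2 libraries a diet, 1 of 4012 genes was called by edgeR, as higher (0.0249%). Of 24 genes of fatty acid oxidation 22 had positive differences, with a median of 0.87 against -0.05 over all genes and 0.91 in other proximal cells. Of 17 other secreted proteins 2 had positive differences and 0 were called, with a median of -0.97 against 0.06 in other cells. Of 11 defensins outside the rule 0 had positive differences and 0 were called, with a median of -1.67 against -1.93 in other cells. Cells with shares of 10% or more were 2 of 4 and 3 of 9 (control) against 0 of 6 and 1 of 4 (high fat). Their part in these differences was not tested. The diet by organ term called 0 of 4012 genes by edgeR, with 109 at an unadjusted p under 0.05, and DESeq2 also called 0.

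**Figure D5:**
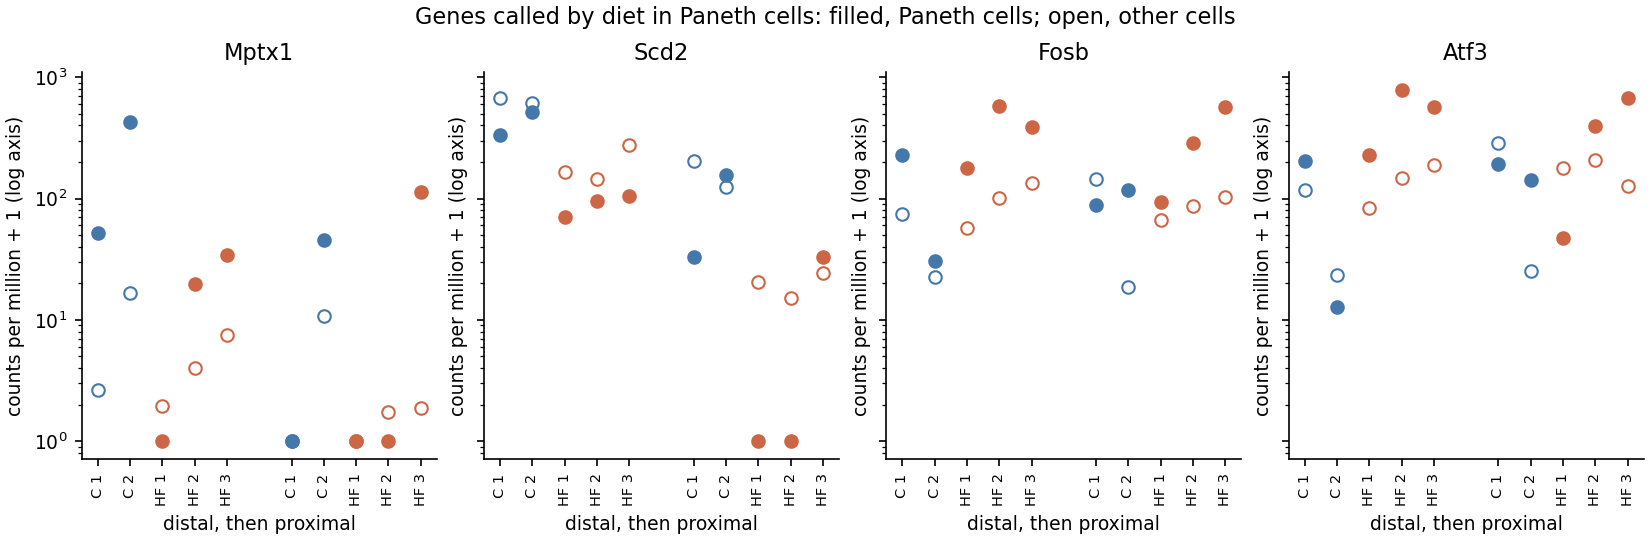
CPM plus 1 (log axis) of 4 genes called by diet distally, for the 5 distal and then the 5 proximal libraries; filled points are Paneth cells, open points all other cells of the library, blue control and orange high fat diet. Scd2 is lower distally under the high fat diet in both populations, while Fosb and Atf3 differ between the 2 distal control mice.

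The diet difference was also set against that in other distal cells, by a diet by population term. With 10 or more Paneth cells per library, 18 of 12527 genes (0.144%) had a higher and 5 (0.0399%) a lower diet difference in Paneth cells by edgeR. With at least 4 the counts were 3 (0.0253%) and 2 (0.0169%) of 11866. Leaving out high fat diet mouse 2 took this last total from 5 to 1, leaving out control mouse 1 to 23 and control mouse 2 to 16. Habp2 and Mptx1 had a lower diet difference in Paneth cells than in other cells in both fits. Such a term also falls when a gene rises in other cells. Habp2 stood at 1043 and 709 (control) against 616, 593 and 686 (high fat) CPM in distal Paneth cells. With libraries of at least 4, it was not called by diet there. The 17 other secreted proteins tested in that diet fit had a median difference of -0.19 in Paneth cells and 0.51 in other cells. Sis and Slc5a1, genes of sugar digestion and uptake, had a higher diet difference in both population fits, from low levels: Slc5a1 stood at 0 and 2.97 (control) against 50.8, 34.0 and 31.8 (high fat) CPM.

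The genes of the rule had a median log2 difference by diet of 1.20 in other distal cells, with no test, and of -0.43 in distal Paneth cells with libraries of 4 or more cells. With libraries of 10 or more, and so 1 control mouse, the median in distal Paneth cells was 0.35, of the opposite sign. The share of these genes in other distal cells was 0.0291% and 0.0305% (control) against 0.0413%, 0.0653% and 0.107% (high fat), in nearly the order of the Paneth cell share. Whether free RNA from Paneth cells carried these counts was not tested.

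Over both organs together, Paneth cells met the stem cell call more often than other cells, but not after each cell was thinned to equal depth. What set the difference was not tested. The call is at least 1 UMI of Lgr5 or of the reporter. It was met by 42.1% of Paneth cells and 26.8% of other cells, with median depths of 15379 and 13876 UMIs, and by 15.6% of T cells. Pooled over both organs of a mouse, the mean difference was 15.3 percentage points, higher in 5 of 5 mice (exact sign-flip test, two-sided p = 0.063, the smallest possible). By organ, the call was met by 45.3% of Paneth and 28.6% of other cells distally, and by 20.8% and 25.3% proximally. In high fat diet mouse 2, Paneth cells were lower in each organ alone, at 22.7% against 25.2% distally and 16.7% against 17.4% proximally. With each cell thinned to 3000 UMIs, which left out 9 Paneth and 467 other cells, the shares were 11.5% and 13.1%, and 6.74% in T cells. The mean difference per mouse was then -2.64 points (exact sign-flip p = 0.562). By mouse it was 8.11 and -10.6 (control) and -15.1, -0.813 and 5.20 (high fat) points. Paneth cells with the call had a median of 19828 UMIs and those without it 14055, and their median shares of the rule genes were 12.9% and 7.50%. Lgr5 itself stood at 67.2 ± 21.6 CPM in distal Paneth cells and 80.2 CPM in other distal cells.

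Between Paneth cells with and without the call, compared within the 4 distal libraries that held at least 4 of each, 6 of 2554 genes passed edgeR's test, 1 higher (0.0392%) and 5 lower (0.196%). The higher gene was Lgr5, which defines the call. Zg16 differed by -2.87 (SE 0.33, adjusted p = 0.000592) and was called in 8 of 8 alternatives. Fer1l6 differed by -2.53 (SE 0.34, adjusted p = 0.00255), the cell cycle gene Ccnd2 by -1.82 (SE 0.28, adjusted p = 0.00939), Fabp2, an enterocyte fatty acid binding protein, by -1.12 (SE 0.19, adjusted p = 0.0183) and Krt20, a keratin of mature epithelium, by -1.81 (SE 0.31, adjusted p = 0.0183). Leaving out control mouse 2 or high fat diet mouse 3 gave 2 genes each, and leaving out high fat diet mouse 1 gave 49. The higher share of rule genes in the cells with the call went with these differences, and its part was not tested.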

How the data were processed

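Seq-Well single-cell RNA was measured in 15 libraries of 5 mice, and the 10 small intestine libraries were used for the comparisons. The deposited matrix holds counts, whole UMIs per gene and cell for 17185 genes. The genome build was mm10, per the submitters' processing notes, and the aligner, counter and cell filters are not given in the sources used here. The deposited metadata gives each cell's organ, mouse and total count. Its control mouse 3 was taken as the mouse that the labels number 2, the only one left over. Genes seen in few cells of a library are nearly all at 0 in the deposited counts: 94 gene and library entries have exactly 1 cell with a count and 5035 have 5.

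Counts of Paneth cells were summed per library and tested with edgeR 4.0.16 (quasi-likelihood, TMM, filterByExpr, Benjamini-Hochberg at 0.05, R 4.3.3), with 1 term for each organ and diet group. DESeq2 1.42.0 was an alternative. Libraries of 10 or more Paneth cells were planned, and 4 or more was added after the counts were seen. Shares were compared by exact permutation, and T cells (443) served as the cell type that should lack Paneth genes. Paneth cell sums held 21690 to 1887214 UMIs per library, which limits the precision of low genes. Scripts were tested on simulated data: at 4 cells or more, 58% of 8-fold changes by diet in distal and 94% by organ were recovered, and at 10 cells or more 2% by diet, each of 50 genes. False calls there numbered 1 for distal diet and 6 for organ at 4 cells or more, 2 for proximal diet and 0 for distal diet at 10 cells or more, against 2, 144, 1 and 18 genes called in the data. The simulated data gave every gene the same spread between libraries and held no zeros from a filter. Their false calls therefore give no error rate for the genes called in the data. The members and the gene lists were chosen with earlier results of these data known. Named genes are the 6 rule genes, the called genes (up to 12 in each direction by p), list members that passed and the 4 highest of a list, and the 20 highest ratios to other cells. Dll1, Dll4, Egf, Ccl9, Hspa5, Xbp1, Lyz2, Pigr and further list members were named after their values were seen. Mice of a group are separate animals. Some called genes are not reported here. The sequences come from GENCODE M21 on GRCm38.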

Additional observations from a re-analysis of the deposited data

Results flagged for a closer look

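With 1 control library against 3, the diet difference was called as unequal between distal Paneth cells and other distal cells for 18 genes as higher and 5 as lower of 12527 (edgeR's test of the diet by population term). Most of these genes were not called with both control mice. Values are the log2 diet difference in Paneth cells minus that in other cells. Among genes of stem and dividing cells the difference was 2.78 for Olfm4 and 2.48 for Mki67. The immediate early genes Egr1 and Atf3 were at 2.07 and 2.93. Among genes of absorptive cells, Sis was at 2.97, Slc5a1, the glucose transporter, at 4.60, Dak, an enzyme of fructose breakdown, at 3.36, Otc, of the urea cycle, at 3.25 and Prap1 at 3.89. Mt1, a metallothionein, was at 2.28. Of Paneth and secretory genes, Rnase1 was at -1.93, Habp2 at -2.02, Mptx1 at -2.21, the phospholipase Pla2g5 at -3.28 and A4gnt, which caps mucin sugars, at -1.90. With libraries of at least 4 Paneth cells, 5 of 11866 genes were called, with Sst at 3.76, Sis at 2.94, Slc5a1 at 4.58, Habp2 at -1.76 and Mptx1 at -2.32. The other 11 genes named here did not pass in that fit, with adjusted p from 0.0512 (Atf3) to 0.359 (Olfm4) in edgeR's test.

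Sst, the somatostatin gene of enteroendocrine cells, was at 3.86 with 10 or more Paneth cells per library. It rested on high fat diet mouse 2, whose distal Paneth cells had 340 CPM of Sst against at most 14.8 CPM in the other 4 mice, and it went to -1.16 without that mouse. Habp2 stood at 1043 and 709 CPM in the distal Paneth cells of the control and at 616, 593 and 686 CPM in those of the high fat diet mice, so that its groups did not overlap. With libraries of at least 4 it was not called by diet in Paneth cells, and its term also holds the change in other cells. The Paneth products Rnase1, Habp2 and Mptx1 are also counted in other cells, and the part of free RNA in these terms was not tested.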

How the results depend on the processing

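The organ and diet differences in the share of Paneth cells kept their sign in all alternatives run, with ranges over left-out mice of 2.17 to 4.04 points for diet distally, -0.243 to -0.0172 proximally, 1.45 to 2.51 for organ and 2.35 to 4.10 for the diet difference between organs. The difference in the stem call ranged from 11.4 to 18.6 points over left-out mice and reversed after thinning, to -2.64 in both organs and -4.58 distally. Counts of called genes moved most. Diet distally at 10 cells (18 genes) gave 5 in DESeq2, 5 with at least 5 cells, 2 at 1% of UMIs and 7 to 22 over left-out mice. At 4 cells (2 genes) it gave 0 in DESeq2, 16 with no filter on low counts, 0 with genes counted in every library, 4 with a replicate block, 5 with at least 5 cells, 0 at 1%, 13 at 5%, 10 without stem-called cells and 0 to 5 over left-out mice. Diet proximally (1 gene) gave 0 in DESeq2, 6 with no filter, 3 with the block and 0 to 4 over left-out mice. Organ (144 genes) gave 237 with no filter, 243 with the mouse block, 320 with at least 5 cells and 21 to 166 over left-out mice. The stem call gave 13 genes with DESeq2 size factors and 39 with no filter at 10 cells (1 gene), and 49 with no filter and 2 to 49 over left-out mice at 4 cells (6 genes). The diet by population term gave 2 in DESeq2, 15 with no filter and 15 to 35 over left-out mice at 10 cells (23 genes), and 0 in DESeq2, 3 with the block and 1 to 23 over left-out mice at 4 cells (5 genes). The diet by organ term (0 genes) gave 3 with no filter, 1 with the block and 0 to 2 over left-out mice. Sst in the population term went to -0.242 in DESeq2 and ranged from -1.16 to 6.28 over left-out mice at 10 cells and from -1.16 to 9.29 at 4 cells, lowest without high fat diet mouse 2. The cause was not tested. Replicate numbers of the diets share only a number: deviations correlated at -0.00387 and -0.0364 distally over 4012 genes. The organ and proximal fits at 10 cells, and those at 20 cells, could not be fitted. At 10 cells, diet distally and the population term also could not be fitted without control mouse 2 or with a replicate block. Their ranges over left-out mice therefore never leave out the lone control. Diet distally at 10 cells was also not fitted at 5% of UMIs or without stem-called cells. Nor was the stem call at 10 cells without high fat diet mouse 2 or 3.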
